A study of Mus musculus with 6 samples.

Results

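The SLC25 family holds the carriers that move nucleotides, phosphate, carboxylates, amino acids, cofactors and iron across the inner membrane of mitochondria. Its members were taken as every gene whose symbol is Slc25a followed by a number, and 43 of the 26699 genes in the files matched. They were examined in primary mouse bone marrow macrophages on their way to becoming osteoclasts, the bone-resorbing cells, with and without a myeloid knockout of Slc11a2. Slc11a2 encodes a transporter of ferrous iron that moves iron out of endosomes and into cells.

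The mice were 8 weeks of age, and their hindlimb marrow was expanded in 10 ng/mL M-CSF, a macrophage growth factor. All cells were then kept for 48 h in 50 ng/mL RANKL, which triggers osteoclast differentiation, with 30 ng/mL M-CSF. The control cells were Slc11a2flox/flox with no Cre, and the conditional knockout cells (cKO) were LysmCre-Slc11a2flox/flox, in which the lysozyme M promoter drives Cre in myeloid cells, so all 6 libraries shared the floxed alleles. Each genotype had 3 libraries of polyadenylated RNA. Since no control carried Cre, any effect of Cre or of its insertion and the effect of the knockout cannot be told apart. The labels do not say whether the libraries of a genotype are separate animals or cultures, and p-values therefore reflect only the spread between libraries, some of which may be technical.

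A carrier of this family has a repeated fold that opens to one side of the membrane at a time, so that most members swap one solute for another. The ADP/ATP carriers and the phosphate carrier bring ADP and phosphate to the ATP synthase and take ATP out. The mitoferrins bring in the iron that mitochondria build into heme and iron-sulfur clusters, and the carboxylate, amino acid and acyl carriers link the pathways of the cytosol to the TCA cycle and to fat oxidation. Osteoclasts are rich in mitochondria, and their resorption of bone takes much ATP.

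Total counts ran from 49720701 to 57797282 per library, and 20804 to 21837 genes had at least 1 read. Slc11a2 itself stood at 119, 110 and 118 CPM (reads scaled to a common library total by the TMM method) in the controls and at 78.3, 82.8 and 87.4 CPM in the cKO libraries (log2 fold change -0.48 ± 0.06 SE, edgeR adjusted p = 0.00219). These values cover the gene as a whole, so they do not tell how much of the transcript in the cKO libraries was intact. Lyz2, the host gene of the Cre, was lower as well (-1.14 on the log2 scale, adjusted p = 9.39e-06). The summed level of 9 osteoclast markers ranged from 11684 to 15161 CPM in the controls and from 8463 to 12100 CPM in the cKO libraries. Most of it was Mmp9, Acp5 and Ctsk (means of 6377, 2902 and 2087 CPM in the controls). All 9 log2 fold changes were negative (49.6% of all genes), with Atp6v0d2 almost level at -0.01 ± 0.08. None passed the test, and DESeq2 called 0. An unadjusted p below 0.05 was found for 3, all lower (8.79% of all genes). Without cKO 3, however, edgeR called 6 of these 9 (Acp5, Ctsk, Mmp9, Dcstamp, Ocstamp and Nfatc1, at adjusted p of 0.00438 to 0.045). The share of all genes called without cKO 3 is not given here, so counts from that fit, here and below, lack that comparison. Of 6 macrophage markers none passed the test either, with sums of 7078 to 7621 CPM against 6777 to 7291 CPM. DESeq2 called 0, and 1 was lower at an unadjusted p below 0.05 (8.79% of all genes). Of 9 neutrophil markers tested, edgeR called 4 higher (Ngp, Ltf, S100a8 and S100a9, at adjusted p of 0.000311 to 0.0401), against 1.36% of all genes. Mpo alone had a negative log2 fold change (-0.82 ± 0.50, adjusted p = 0.438). The sum of 12 genes was 201 to 232 against 269 to 303 CPM. Most of it was Mmp8 (209, 198 and 175 against 247, 201 and 241 CPM), which was not called (adjusted p = 0.19). All 6 stroma markers had a positive log2 fold change (median 0.383, summed level 3417 to 3988 against 3217 to 5163 CPM), where 49.6% of all genes had a negative one. An unadjusted p below 0.05 was found for 2, both higher (8.38% of all genes). None was called by edgeR with all libraries, DESeq2 called Pdgfrb (adjusted p = 0.0135), and without cKO 3 edgeR called Pdgfrb (0.0057) and Col3a1 (0.0358). Erythroid genes summed to 0.75 to 1.29 against 1.07 to 1.74 CPM, and no T or NK cell marker had a row. B cell genes summed to at most 14.6 CPM in a library. Most of this was Ebf1 (11.1 to 13.6 CPM), with Cd79a, Cd79b and Pax5 each below 1 CPM. What part these cell type markers have in the differences below was not tested, and fewer cells of a type and less RNA per cell cannot be told apart in bulk RNA.

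Of the 43 genes, 40 had at least 10 counts in at least 3 libraries, and the same 40 entered the genotype test. The other 3 were close to absent. Slc25a34 had 0 to 16 counts per library, Slc25a2, an ornithine carrier, had 2 to 6, and Slc25a31, the germ line ADP/ATP carrier, had 4 counts in control 1 and 0 elsewhere. A count of 0 allows up to 3 reads, which is 0.0519 to 0.0603 CPM in these libraries.

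Expressed per transcript length (FPKM, computed by the authors), the family was led by a handful of genes. Slc25a5, the main ADP/ATP carrier of dividing and most somatic cells, reached 158 ± 9.85 FPKM (SD, n = 3) in the controls and was the highest by a wide margin. Next in the controls came the phosphate carrier Slc25a3 (49.3 ± 3.2 FPKM) and the second ADP/ATP carrier Slc25a4 (48.4 ± 1.5 FPKM), which did not differ beyond their spread. Slc25a39, a glutathione carrier, and Slc25a11, the oxoglutarate carrier, followed at 37.8 ± 3.52 and 36.8 ± 1.23 FPKM and also overlapped. These 5 genes held 59.4% to 64.6% of the family's summed FPKM, and Slc25a5 alone held 26.7% to 31.1%. By mean FPKM over all 6 libraries, the 10 highest genes spanned 10.7 to 143 FPKM, the next 10 spanned 4.7 to 9.96, the next 10 after those 1.35 to 4.62, and the 10 lowest tested genes 0.152 to 1.11. The authors' lengths follow the union of all annotated exons (28 of 28 members with at least 500 counts lay within 5% of a constant ratio to it), so a gene with long or retained-intron isoforms has its FPKM understated against the others.

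**Figure D1:**
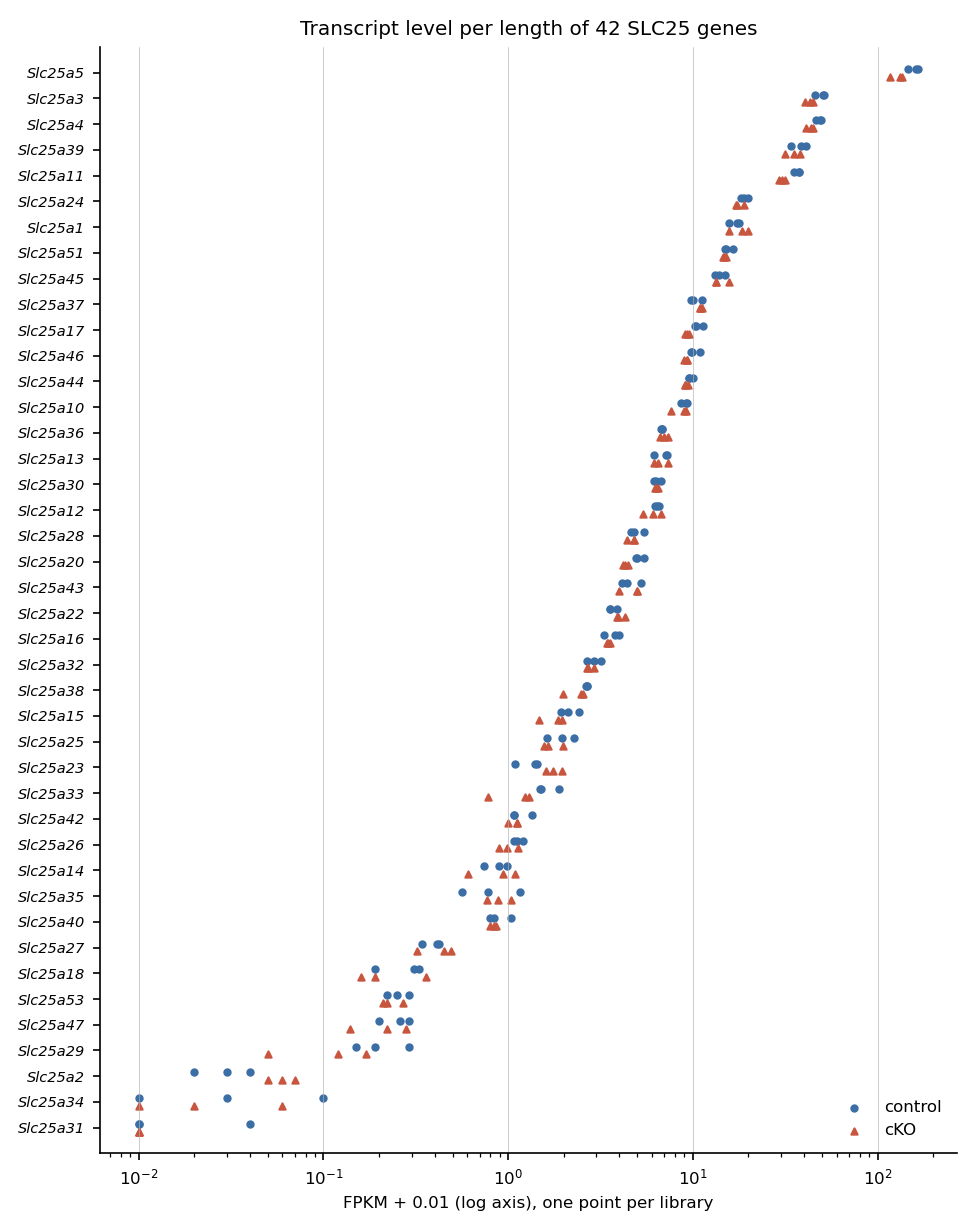
FPKM plus 0.01 on a log axis for 42 SLC25 genes, ordered by mean, with 1 point per library (circles control, triangles cKO). Slc25a5 stands above all others, and for the 5 highest genes other than Slc25a39 the cKO points lie to the left of the control points.

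In the cKO libraries 2 abundant carriers fell, no member rose, and 38 members did not pass the test. Slc25a5, which exchanges ADP for ATP, fell by 19.7%, and Slc25a11, which exchanges oxoglutarate for malate, fell by 18.2%. With edgeR 2 of 40 members were called lower, against 1.06% of all 16843 genes tested, and 0 of 40 were called higher, against 1.36% of all genes. At an unadjusted p below 0.05, 9 of 40 members were lower (8.79% of all genes) and 1 was higher (8.38% of all genes). A negative log2 fold change was found for 30 of 40 members and for 49.6% of all genes. The median log2 fold change was -0.099 for the members, while the median over all genes lay near 0. By library, the median member stood at 0.02, -0.039 and 0.003 (log2 against the control mean) in the controls and at -0.128, -0.117 and -0.086 in the cKO libraries, so each cKO library was below each control by this measure. The 3 cKO values lay wholly below the 3 control values for 11 of 40 members (11.4% of all genes) and wholly above them for 1, Slc25a23 (11.1% of all genes). The summed FPKM of the family was 525, 494 and 533 in the controls and 436, 473 and 471 in the cKO libraries, or 11.1% lower, where the sum over all rows of the files was 4.4% lower.

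**Figure D2:**
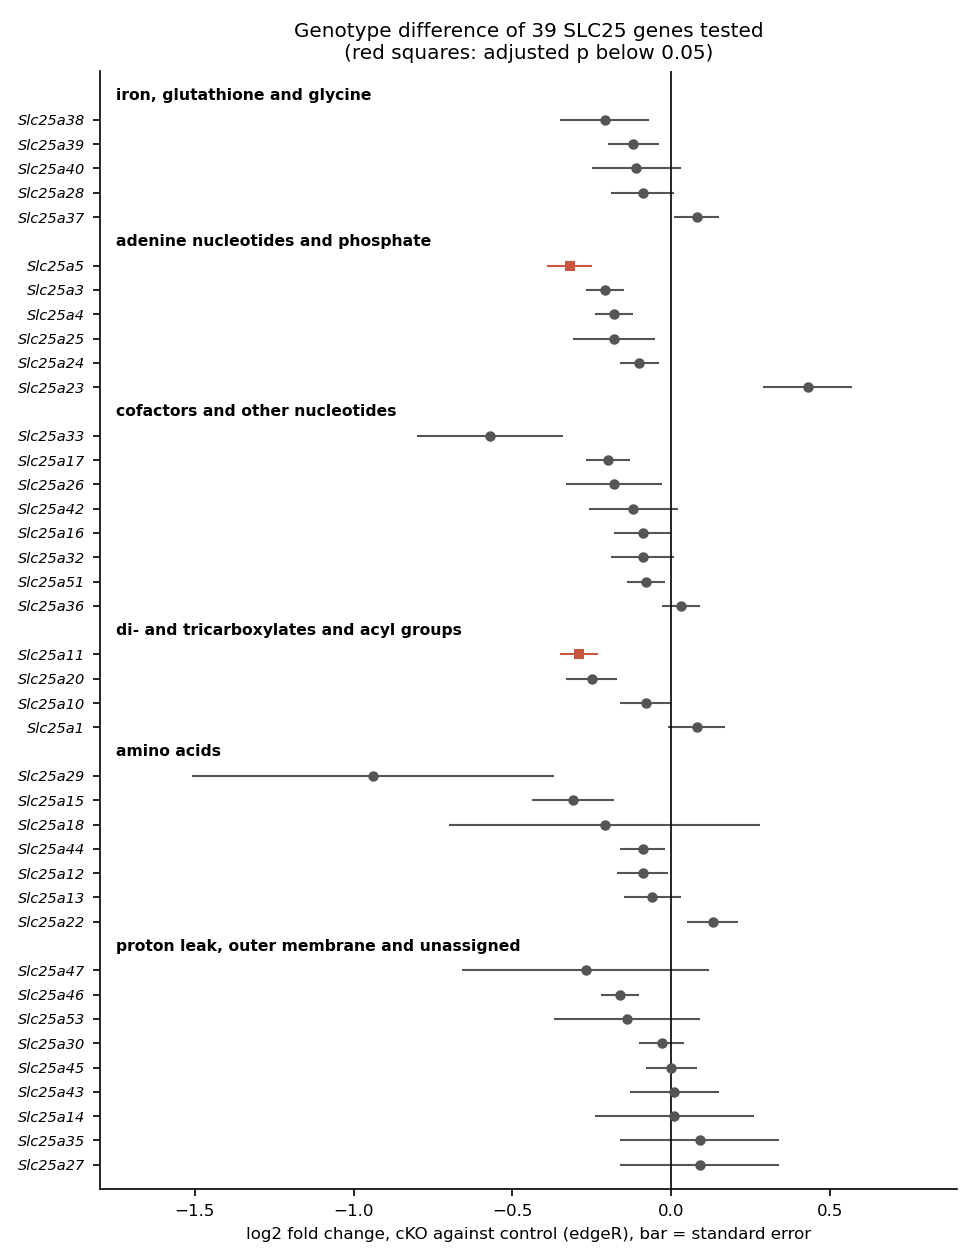
Log2 fold change of cKO against control from edgeR for 39 of the SLC25 genes tested, with its standard error, grouped by transported substance. The 2 red squares, Slc25a5 and Slc25a11, are the genes with an adjusted p below 0.05, and 29 of the 39 points lie left of 0.

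The sequences just upstream of the transcription start are given for the 2 genes that fell, and for Slc25a3 and Slc25a4, which had the next highest levels among carriers whose genotypes did not overlap. Each is the 250 bases before a RefSeq start on GRCm38.p6, read 5' to 3' along the gene's strand: chrX:36795347-36795596 on the plus strand for Slc25a5, and on the minus strand chr11:70647040-70647289 for Slc25a11, chr10:91123968-91124217 for Slc25a3 and chr8:46211063-46211312 for Slc25a4. The bases just after the start were found in an annotated transcript of the gene for Slc25a11, Slc25a3 and Slc25a4. For Slc25a5 they were not, and its window ends upstream of the annotated gene start at 36795651. The start and strand used for Slc25a5 were therefore not borne out by that check. On the minus strand, the gene annotation that came with the counts starts Slc25a11 at 70647058, Slc25a3 at 91124059 and Slc25a4 at 46211284. Each of these positions falls inside the window, so part of each window lies within the gene by that annotation. For Slc25a4 this is most of the window, including its ETS match. Capitals mark a match to the ETS motif CCGGAAG.
Slc25a5: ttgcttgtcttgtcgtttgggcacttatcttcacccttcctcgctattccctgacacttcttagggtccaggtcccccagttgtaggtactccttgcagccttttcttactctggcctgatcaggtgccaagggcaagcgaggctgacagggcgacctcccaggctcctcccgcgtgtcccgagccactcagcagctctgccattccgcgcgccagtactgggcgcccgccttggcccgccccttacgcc
Slc25a11: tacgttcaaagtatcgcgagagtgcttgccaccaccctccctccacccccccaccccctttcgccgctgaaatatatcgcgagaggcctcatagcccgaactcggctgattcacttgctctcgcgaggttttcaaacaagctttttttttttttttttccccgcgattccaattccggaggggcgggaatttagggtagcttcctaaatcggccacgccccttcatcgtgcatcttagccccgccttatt
Slc25a3: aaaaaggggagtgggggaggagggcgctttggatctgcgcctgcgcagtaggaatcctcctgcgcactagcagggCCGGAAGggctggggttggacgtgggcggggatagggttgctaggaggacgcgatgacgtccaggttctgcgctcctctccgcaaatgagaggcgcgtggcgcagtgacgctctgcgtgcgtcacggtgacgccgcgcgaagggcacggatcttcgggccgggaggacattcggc
Slc25a4: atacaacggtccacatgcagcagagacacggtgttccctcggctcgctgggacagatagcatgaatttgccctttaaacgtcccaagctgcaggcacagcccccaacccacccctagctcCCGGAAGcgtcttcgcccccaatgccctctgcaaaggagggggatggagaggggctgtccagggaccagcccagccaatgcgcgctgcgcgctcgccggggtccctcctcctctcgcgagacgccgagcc
Motifs of 3 factors known to drive nuclear genes for mitochondria were searched on both strands: the NRF1 core GCGCATGC, the ERR half-site AAGGTCA and the ETS motif CCGGAAG, which GABP binds. RefSeq windows were matched by symbol for 33 of the 43 members (42 windows). The ETS motif was found in 5 of 42 member windows and in 6.91% of all 32851 windows, and the genes were Slc25a4, Slc25a3, Slc25a20, Slc25a38 and Slc25a17, with the match beginning 130, 175, 79, 46 and 77 bases before the start. The NRF1 core was in 1 of 42 member windows (2.26% of all windows) and the ERR half-site in 1 of 42 (4.08% of all windows), both in genes at or near 0 counts, Slc25a31 and Slc25a34. The windows of Slc25a5 and Slc25a11 held none of these 3 letter strings. These are matches of letters, not binding sites.

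Of the 6 carriers of adenine nucleotides and phosphate tested, 1 fell in the cKO libraries, and it was the most abundant of the family. Slc25a5 (ENSMUSG00000016319) lies at chrX:36795651-36798807 on the plus strand (mm10, as in the files). Its level was 310, 281 and 314 CPM in the controls and 223, 247 and 257 CPM in the cKO libraries. The genotypes did not overlap, with cKO 1 the lowest, and the log2 fold change was -0.32 ± 0.07 (edgeR adjusted p = 0.0354; DESeq2 adjusted p = 0.00105). A processed copy, Slc25a5-ps, had at most 6 counts in a library, and Slc25a5 overlaps no other row. Slc25a4, the ADP/ATP carrier typical of heart and muscle, stood at 135, 127 and 133 CPM in the controls and at 112, 120 and 118 CPM in the cKO libraries. Its genotypes did not overlap either, but its log2 fold change of -0.18 ± 0.06 did not pass (adjusted p = 0.131). Slc25a3, which imports the phosphate used for ATP synthesis, had 328, 294 and 329 CPM against 262, 272 and 287 CPM. Control 2 and cKO 3 came close without overlapping, a small predicted gene (Gm24119) overlaps it on the same strand, and the log2 fold change of -0.21 ± 0.06 passed with DESeq2 (adjusted p = 0.0375) but not with edgeR (0.112).

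The remaining tested members of that role are calcium-regulated carriers that exchange ATP-magnesium for phosphate. Slc25a23 was the only one of the 40 members with all cKO libraries above all controls, at 8.82, 6.68 and 8.51 CPM in the controls and 12, 9.61 and 10.6 CPM in the cKO libraries. Its log2 fold change of 0.43 ± 0.14 did not pass the test (adjusted p = 0.153). An opposite-strand row, Gm17168, overlaps it, and the sources used here do not state whether counting took the strand into account. Its relatives Slc25a24 (-0.10 ± 0.06) and Slc25a25 (-0.18 ± 0.13) had overlapping genotypes. The group of 7, of which 6 were tested, thus held 1 call, a median log2 fold change of -0.178 and a summed FPKM of 284, 263 and 288 in the controls against 219, 243 and 244 in the cKO libraries.

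**Figure D3:**
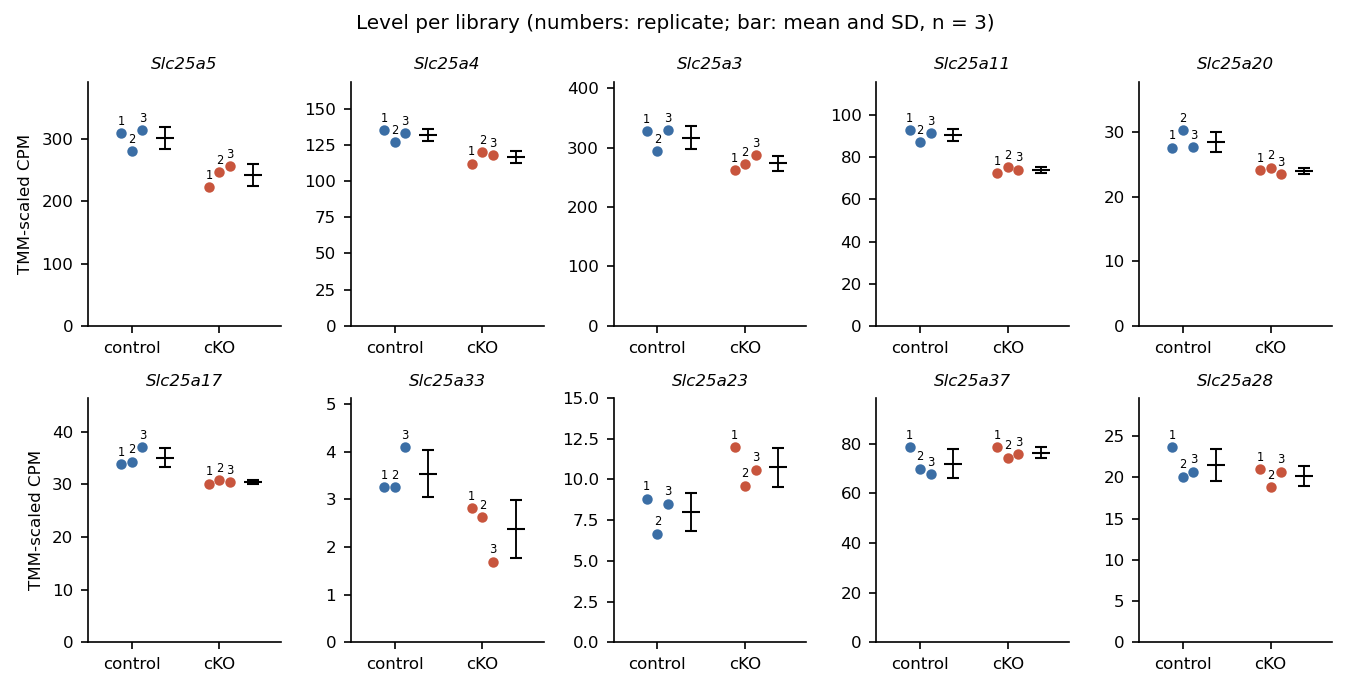
TMM-scaled CPM of 10 SLC25 genes in each library (numbered points), with the mean and SD of each genotype beside them. The control and cKO points are apart for Slc25a5, Slc25a4, Slc25a3, Slc25a11, Slc25a20, Slc25a17, Slc25a33 and Slc25a23 and overlap for the mitoferrins Slc25a37 and Slc25a28.

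Of the 4 carriers of carboxylates and acyl groups, all tested, 1 fell. Slc25a11 (ENSMUSG00000014606), at chr11:70644196-70647058 on the minus strand, exchanges oxoglutarate for malate and is part of the malate-aspartate shuttle that brings reducing equivalents into mitochondria. It stood at 92.7, 87.1 and 91.5 CPM in the controls and at 72.5, 75.4 and 74 CPM in the cKO libraries. The genotypes were well apart, with a log2 fold change of -0.29 ± 0.06 (edgeR adjusted p = 0.0236; DESeq2 adjusted p = 0.000986). Slc25a20, which brings acylcarnitines in for fat oxidation, had 27.6, 30.3 and 27.7 CPM against 24.1, 24.5 and 23.5 CPM, without overlap, and a log2 fold change of -0.25 ± 0.08 that did not pass (adjusted p = 0.127). Slc25a1, which sends citrate to the cytosol for lipid synthesis, had 44.8, 43.4 and 39.3 CPM against 46.4, 48.8 and 39.1 CPM, and these overlapped (0.08 ± 0.09, adjusted p = 0.72; 0.01 to 0.165 with 1 library left out). Slc25a10, the dicarboxylate carrier, had 36.6, 34.4 and 36.8 CPM against 30.7, 36.2 and 35.5 CPM and overlapped too, with cKO 1 alone below the others (-0.08 ± 0.08, adjusted p = 0.687, and -0.004 without cKO 1). Negative log2 fold changes were found for 3 of these 4 genes.

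The calls of Slc25a5 and Slc25a11 depended on which libraries entered and on how transcript length was handled. With edgeR, both kept an adjusted p below 0.05 without control 2 (0.0491 for Slc25a5 and 0.0473 for Slc25a11) and without cKO 3 (0.0223 and 0.0317), and Slc25a11 alone without cKO 2 (0.041, with Slc25a5 at 0.058). Neither was called without control 1 (0.136 and 0.0992), without control 3 (0.138 and 0.105) or without cKO 1 (0.219 and 0.157). With DESeq2 both were called in all 6 such fits, at adjusted p of 0.000136 to 0.0391 for Slc25a5 and 0.000502 to 0.015 for Slc25a11; with all 6 libraries DESeq2 called 2.64% of all genes lower, and 3 of 40 members. The third, Slc25a3, kept its DESeq2 call without control 2 (0.00527) and without cKO 3 (0.00976) and lost it in the other 4 fits (0.0636 to 0.286). Slc25a4 was called by DESeq2 only without cKO 2 (0.0313).

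**Figure D4:**
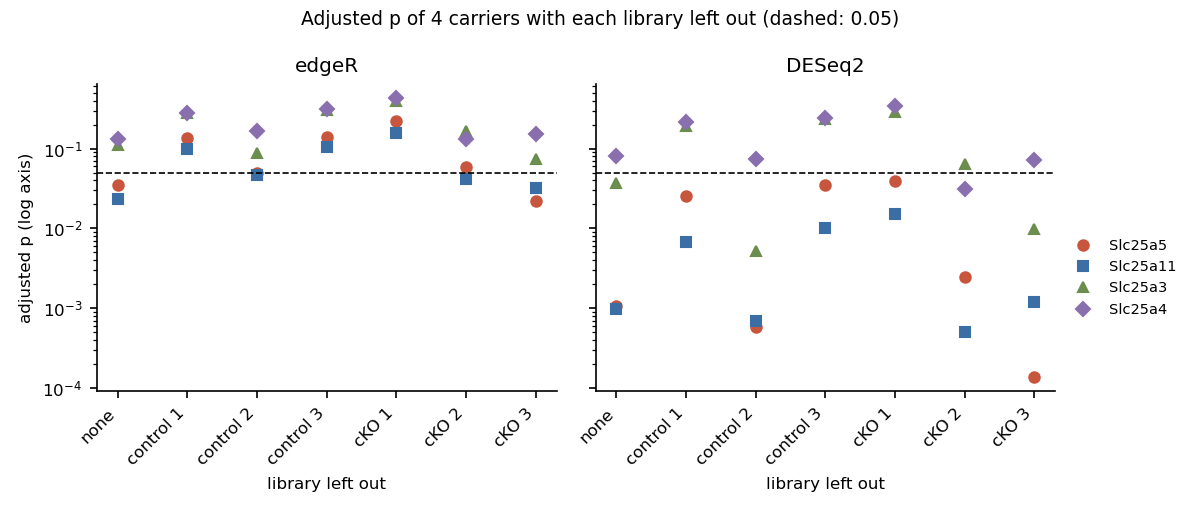
Adjusted p (log axis) of 4 carriers with all 6 libraries (none) and with each library left out, by edgeR and by DESeq2, with the 0.05 threshold dashed. Slc25a5 and Slc25a11 cross the threshold with edgeR when control 1, control 3 or cKO 1 is left out, and Slc25a5 also when cKO 2 is. Both stay under it in every DESeq2 fit. With DESeq2 Slc25a3 is under it in 3 of the 7 fits shown and Slc25a4 in 1.

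In these libraries short genes tended to be lower in cKO: over 9483 genes above 3 on the mean log2 CPM scale, the Spearman correlation of log2 fold change with length was 0.30, and it was 0.22 over the 40 members, given as a description since genes share the libraries. When these genes were ordered by length into 10 equal classes, Slc25a5 was in class 1, the shortest, whose median log2 fold change was -0.12, and Slc25a11 and Slc25a4 were in class 2, at -0.09. Slc25a3, Slc25a20 and Slc25a23 were in class 6, at -0.01. With the length trend of each library removed, Slc25a5 was at -0.21 (adjusted p = 0.128) and Slc25a11 at -0.20 (adjusted p = 0.0703). Slc25a4 moved from -0.18 to -0.09 (adjusted p = 0.39), and Slc25a3 stayed at -0.21 (adjusted p = 0.0883). In that fit 0 of 40 members were called lower, against 0.647% of all genes.

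The carriers of iron, glutathione and glycine, which supply heme and iron-sulfur cluster synthesis, showed no call in 5 genes tested (0 had an unadjusted p below 0.05, and DESeq2 called 0). Slc25a37, mitoferrin-1, best known for iron import in erythroid cells, stood at 78.5, 69.9 and 67.6 CPM in the controls and at 78.7, 74.3 and 75.9 CPM in the cKO libraries. Control 1 lay among the cKO values, and the log2 fold change was 0.08 ± 0.07 (adjusted p = 0.58), ranging from 0.043 without control 3 to 0.152 without control 1. Rows of 3 predicted genes overlap it, 2 of them on the opposite strand. Slc25a28, mitoferrin-2, the form found in most tissues, had 23.7, 20.1 and 20.7 CPM against 21, 18.8 and 20.7 CPM, overlapping, with a log2 fold change of -0.09 ± 0.10 (adjusted p = 0.682) that ranged from -0.142 to -0.013 with 1 library left out. Slc25a39, which imports glutathione, had 124, 108 and 130 CPM against 101, 111 and 120 CPM (-0.12 ± 0.08, adjusted p = 0.47; -0.198 to -0.061 with 1 library left out), again with overlap. Slc25a38, which imports glycine for the first step of heme synthesis, was steady at 8.55, 8.51 and 8.39 CPM in the controls and at 8.12, 7.68 and 6.21 CPM in the cKO libraries. These did not overlap, though cKO 3 lay apart from the other two, and the log2 fold change of -0.21 ± 0.14 did not pass (adjusted p = 0.48) and was -0.1 without cKO 3. The second glutathione carrier, Slc25a40, overlapped as well (-0.11 ± 0.14).

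Among 9 carriers of cofactors and other nucleotides none was called (2 had an unadjusted p below 0.05, both lower, and DESeq2 called 0) and 8 log2 fold changes were negative, with a median of -0.091. Slc25a33, a pyrimidine nucleotide carrier linked to mitochondrial DNA and growth, had the most negative log2 fold change among members with a mean of at least 1 FPKM in a genotype, at 3.25, 3.26 and 4.1 CPM against 2.82, 2.63 and 1.69 CPM. The genotypes did not overlap and cKO 3 was the lowest, but at 90 to 235 counts per library the log2 fold change of -0.57 ± 0.23 did not pass (adjusted p = 0.228) and was -0.38 without cKO 3. Its opposite-strand neighbour Gm13068 overlaps it. Slc25a36, the other pyrimidine carrier, had 74.9, 75.7 and 74.9 CPM against 77.6, 72.2 and 80.6 CPM, which overlapped (0.03 ± 0.06, adjusted p = 0.838). Slc25a17, which carries CoA, FAD and NAD across the peroxisomal membrane, was at 33.8, 34.3 and 37.1 CPM against 30.1, 30.8 and 30.4 CPM, without overlap (-0.20 ± 0.07, adjusted p = 0.169). Slc25a51, the NAD carrier of mitochondria, was the highest of the group at 15.5 ± 0.869 FPKM in the controls and 14.8 ± 0.291 FPKM in the cKO libraries. The S-adenosylmethionine carrier Slc25a26, the folate carrier Slc25a32, the CoA carrier Slc25a42 and Slc25a16 had log2 fold changes between -0.18 and -0.09, all with overlap.

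Of 8 amino acid carriers 7 were tested and none was called (1 had an unadjusted p below 0.05, and DESeq2 called 0). Slc25a15, which brings ornithine in, had 12.6, 13.6 and 15.7 CPM in the controls and 9.57, 11.8 and 12.6 CPM in the cKO libraries. Control 1 and cKO 3 were almost level, and the log2 fold change of -0.31 ± 0.13 did not pass (adjusted p = 0.261). Slc25a22, a glutamate carrier, had 24.8, 26.9 and 24.7 CPM against 27.3, 29.2 and 26.9 CPM; control 2 met cKO 3, and the log2 fold change was 0.13 ± 0.08 (adjusted p = 0.451). The aspartate-glutamate carriers Slc25a12 and Slc25a13, partners of Slc25a11 in the malate-aspartate shuttle, had log2 fold changes of -0.09 ± 0.08 and -0.06 ± 0.09 with overlap. Slc25a44, a branched-chain amino acid carrier, was at 9.69 ± 0.252 FPKM in the controls and 9.15 ± 0.191 FPKM in the cKO libraries, without overlap (-0.09 ± 0.07, adjusted p = 0.511). The largest log2 fold change of the family, -0.94 ± 0.57 for the basic amino acid carrier Slc25a29, rested on 7 to 45 counts per library, overlapped and did not pass (adjusted p = 0.433); its start lies 163 bp from Slc25a47 on the other strand. Slc25a18 was at 19 to 42 counts.

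The last group holds carriers related to the uncoupling proteins, the outer membrane member Slc25a46 and members without a settled substrate; 9 of 10 were tested and 0 were called (1 had an unadjusted p below 0.05, and DESeq2 called 0). Slc25a46, which takes part in the shape and fission of mitochondria, stood at 64 ± 3.93 CPM in the controls and 57.3 ± 0.88 CPM in the cKO libraries, without overlap (-0.16 ± 0.06, adjusted p = 0.225). Slc25a45, the highest of the group at 14 ± 0.888 FPKM in the controls, had a log2 fold change of 0.00 ± 0.08. The uncoupling protein relatives Slc25a30 (-0.03 ± 0.07), Slc25a14 (0.01 ± 0.25) and Slc25a27 (0.09 ± 0.25) overlapped, as did Slc25a43, Slc25a35, Slc25a47 and Slc25a53. The precision here falls with level: the median standard error was 0.07 on the log2 scale for the 10 highest genes of the family and 0.25 for the 10 lowest tested.

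Close paralogs that carry the same substrate were compared by the share of their summed FPKM held by one of them. This cancels a difference common to both, but not one that varies with length. Slc25a37 held 67.3%, 68.5% and 67.1% of the mitoferrin FPKM in the controls and 70%, 71.2% and 69.5% in the cKO libraries, so all 3 cKO shares were above all 3 controls, by 2.59 points (67.6% ± 0.736 against 70.2% ± 0.873, SD, n = 3; exact two-sided permutation p = 0.1). Slc25a4 held 23.4%, 24.1% and 22.9% of the ADP/ATP carrier FPKM against 26.1%, 25.4% and 24.3%, again without overlap (exact permutation p = 0.1). Slc25a33 held 17.9%, 18% and 21.7% of the pyrimidine carrier FPKM against 15.6%, 15.6% and 9.55%, without overlap, a difference of -5.63 points, or -3.62 points without cKO 3 (exact permutation p = 0.1 with all libraries). The p of 0.1 is the smallest that 3 against 3 libraries can give, so no pair could pass at 0.05, and over the 6 pairs the adjusted p was 0.2 for each of these 3. In each of these 3 the share of the longer gene was higher in cKO. The lengths were 6945 bp for Slc25a37 and 4328 for Slc25a28, 2712 for Slc25a4 and 1896 for Slc25a5, and 11074 for Slc25a36 and 2181 for Slc25a33. What part the length trend has in these shares was not tested. The shares of Slc25a12 with Slc25a13 (48.3% against 47.7%), Slc25a39 with Slc25a40 (97.7% in both) and Slc25a22 with Slc25a18 (93.2% against 94.6%) overlapped between genotypes (exact permutation p = 0.9, 1.0 and 0.6).

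**Figure D5:**
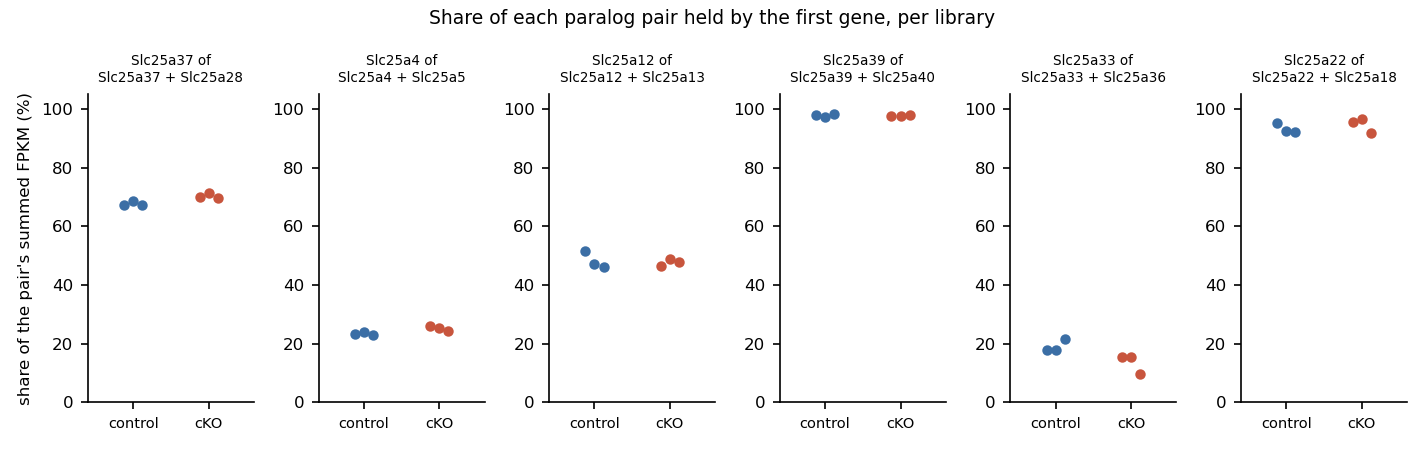
Percent of the summed FPKM of each of 6 paralog pairs held by the first gene, with 1 point per library. The shares of Slc25a37 and Slc25a4 are higher and that of Slc25a33 lower in all 3 cKO libraries, and the other 3 pairs overlap.

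Genes that work beside the family were read from the same fit. Of the family's members under other symbols, 4 were tested and none was called (2 had an unadjusted p below 0.05, and DESeq2 called 0). Ucp2, an uncoupling protein of myeloid cells, was the most abundant at 979 ± 32.8 CPM in the controls and 897 ± 25.5 CPM in the cKO libraries (-0.13 ± 0.06, adjusted p = 0.294). Ucp3 was at 0.126 ± 0.122 against 0.531 ± 0.0674 CPM (2.05 ± 0.82, adjusted p = 0.226), and the outer membrane insertase Mtch2 and its relative Mtch1 had log2 fold changes of -0.13 ± 0.06 and 0.00 ± 0.09. The path that inserts SLC25 proteins into the inner membrane runs from the receptor Tomm70a through small chaperones to the TIM22 complex. All 10 of its tested genes had a negative log2 fold change (49.6% of all genes), with a median of -0.219. Their summed level was 262 to 271 CPM against 222 to 237 CPM. None was called with edgeR, DESeq2 called 0, and 5 had an unadjusted p below 0.05, all lower (8.79% of all genes). The smallest unadjusted p-values belonged to the chaperones Timm13 (-0.38 ± 0.12, adjusted p = 0.119) and Timm8a1 (-0.40 ± 0.14, adjusted p = 0.16), the TIM22 subunit Agk (-0.28 ± 0.10, adjusted p = 0.2) and Tomm70a (-0.17 ± 0.07, adjusted p = 0.221). With the length trend removed, edgeR called 0 genes of this path. In that fit the adjusted p was 0.258 for Timm13, 0.333 for Timm8a1, 0.165 for Agk and 0.0958 for Tomm70a.

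Of 23 other transporters and channels of the mitochondrial membranes, 20 had a negative log2 fold change (49.6% of all genes), and the median was -0.151. With edgeR none of the 23 was called, and DESeq2 called 2, both lower (2.64% of all genes). An unadjusted p below 0.05 was found for 11, of which 10 were lower (8.79% of all genes) and 1 higher (8.38% of all genes). Without cKO 3, edgeR called 3 (Mpc2, Vdac1 and the ion exchanger Letm1, at adjusted p of 0.0496, 0.0463 and 0.0478). With the length trend removed, edgeR called 1, Mpc2 (adjusted p = 0.0443), while Vdac1 was at 0.211. In that fit 0.647% of all genes were called lower. Mpc2, a subunit of the pyruvate carrier, had 20, 20.5 and 22.3 CPM against 16, 15.4 and 16.8 CPM, with no overlap (-0.38 ± 0.09, edgeR adjusted p = 0.051, DESeq2 adjusted p = 0.0099). Vdac1, the main pore of the outer membrane, had 229, 231 and 238 CPM against 191, 201 and 209 CPM, also apart (-0.22 ± 0.06, edgeR adjusted p = 0.0682, DESeq2 adjusted p = 0.0124). Vdac2, a related pore, followed (-0.15 ± 0.06, adjusted p = 0.206).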

How the data were processed

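Polyadenylated RNA was sequenced by the authors in 3 control and 3 cKO libraries, grouped by the genotype in the labels. Per the labels' protocols, libraries were made by the dUTP method, which marks the strand. Per the submitters' processing notes, cutadapt 1.9 and build mm10 were used; the sources used here do not give the aligner, the counting program or its use of strand. Each deposited file has read counts for every gene as whole numbers without normalization, and FPKM that the authors computed, per the file headers. All 26699 rows name a gene.

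Counts of all genes were tested with edgeR 4.0.16 in R 4.3.3: filterByExpr (minimum count 10, minimum total 15), TMM scaling, robust quasi-likelihood F test on genotype, Benjamini-Hochberg over 16843 genes, calls at an adjusted p below 0.05. A standard error is the log2 fold change divided by the square root of F. Within a genotype, libraries differed by 16.2 to 36.2 chi-square units per degree of freedom, so none is a copy of another. This does not tell whether they came from separate animals or cultures. Depth limits precision for genes with few reads, as their standard errors show. FPKM were used for levels between genes and for shares, with exact permutation tests. Alternatives were RLE scaling, 3 other filters, DESeq2 1.42.0, limma 3.58.1 voom with sample weights, the replicate block, removal of each library's length trend, and leaving out each library; leaving out libraries with DESeq2 was added after seeing the data. The scripts were tested on simulated data.

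The members and all lists were chosen with earlier results of these data known. Values in every library are given for Slc25a37, Slc25a28, Slc25a39, Slc25a38, Slc25a4, Slc25a5, Slc25a3, Slc25a1, Slc25a10, Slc25a11 and Slc25a20, for called members, and for the 5 largest rises and 5 largest falls with a mean of at least 1 FPKM in a genotype; from partner lists at most 4 genes are named, by smallest unadjusted p, with values in every library added after seeing them for the 2 that DESeq2 called. Values in every library for Slc25a17 were likewise added after seeing them. The single values of 1 member and of 1 partner gene are not reported here, though both are in the counts. Promoter sequences are from RefSeq on GRCm38.p6.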

Additional observations from a re-analysis of the deposited data

How the results depend on the processing

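The count of SLC25 genes called was 2 under RLE scaling, under 3 other filters, with limma-voom and with the replicate block, 3 with DESeq2, and 0 with the length trend removed. Leaving out 1 library gave 0 to 2 calls, and 6 (without control 3) to 12 genes at an unadjusted p below 0.05 against 10 with all libraries. DESeq2 called 2 of the other transporters, both lower (2.64% of all genes). Leaving out 1 library with edgeR gave 0 to 3, with the 3 (Letm1, Mpc2 and Vdac1) only without cKO 3. The median log2 fold change stayed negative in all 14 alternatives. The replicate numbers pair nothing in the labels, so they were treated as names only. The deviations of same-numbered libraries correlated at -0.077, 0.05 and 0.262 over 9454 genes, and those of differently numbered libraries at -0.222 to 0.147. The value for control 3 with cKO 3 was thus the largest, and whether libraries of the same number share a batch was not tested. The sign held in every one of the 14 alternatives that tested the gene for 30 of 40 genes. With the replicate block and with limma-voom, Slc25a45 turned to -0.001 and -0.006, and Slc25a14 to -0.013 and -0.15. Without 1 library the log2 fold change ranged from -0.074 to 0.057 for Slc25a45, from -0.004 to 0.074 for Slc25a36, from -0.061 to 0.01 for Slc25a30, from -0.068 to 0.121 for Slc25a43, from -0.173 to 0.208 for Slc25a14, from -0.121 to 0.41 for Slc25a35, from -0.182 to 0.017 for Slc25a40, from -0.022 to 0.247 for Slc25a27 and from -0.65 to 0.019 for Slc25a18. The share of Slc25a12 ranged from -1.7 to 0.949 points and that of Slc25a39 from -0.305 to 0.219 points. For these values near 0 the cause was not tested. Depth limits the members with the fewest reads: Slc25a29, Slc25a18 and Slc25a47 had standard errors of 0.57, 0.49 and 0.39.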
